A study of Mus musculus with 12 samples.

Results

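Circadian clock genes in sorted mouse skin epithelium are described here through 10 members, Clock, Per1, Per2, Per3, Cry1, Cry2, Nr1d1, Nr1d2, Dbp and Tef. They were taken by name, with every probe set assigned to these symbols, which gave 24 of 45037 probe sets and 10 of the 18193 genes measured. The arrays came from a study of TGF-beta signalling in the activation of hair follicle stem cells, and no label mentions the clock. RNA was measured on 12 Affymetrix arrays of epithelial cells sorted from the back skin of female mice of mixed C57BL/6 and CD1 descent, at postnatal day 72 to 74, around the second passage of the follicles from rest (telogen) into growth (anagen). Cells were sorted with the Rosa26-YFP reporter, P-cadherin and CD34 into 3 fractions: the hair germ (HG), a small cluster of primed progenitors under the stem cell niche, the bulge, which houses the quiescent stem cells, and total skin keratinocytes (TK). The mice were TßRII-Het (Het) or TßRII-cKO (cKO), a control and a conditional knockout for Tgfbr2, the gene of the type II receptor for TGF-beta.

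Each genotype and fraction was hybridized once in set 1 and once in set 2. Arrays called matched below share these labels, and whether a set number marks a common collection was not established. The HG and bulge arrays of set 1 were labelled quiescent in both genotypes. In set 2 they were labelled activated in Het and aberrantly quiescent in cKO, and the TK arrays carried no state. Thus 8 of the 10 groups held 1 array, and Het TK and cKO TK held 2 arrays each. In Het, follicle activation and set cannot be told apart. The Cre driver, the deleted part of Tgfbr2, the number of mice behind an array and the hour of collection are not given in the sources used here. All p-values below therefore measure the spread between these arrays, which may be technical, and the part of the hour of day in any result was not tested.

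The clock of mammalian cells is a feedback loop of transcription. CLOCK and its partner BMAL1 (Arntl) bind E-boxes and switch on the Per and Cry genes, whose proteins return to the nucleus and repress that pair. A side loop runs through the REV-ERB receptors NR1D1 and NR1D2, which compete with ROR activators at shared elements and repress Bmal1 and Clock. The PAR bZIP factors DBP, TEF and HLF bind D-boxes and carry the rhythm to output genes, against the repressor NFIL3. In skin, clock genes are known to vary over the hair cycle as well as over the day, and the clock has been tied to the timing of epidermal cell division and to differences between bulge cells in their readiness to be activated.

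Promoter windows from RefSeq (GRCm38.p6, 250 bases before to 50 after a start site) were matched for 9 of the 10 genes, in 13 windows. The windows of Per1, Per3 and Tef are printed because the results below turn on these genes and because they hold different clock elements. Capitals mark the E-box CACGTG in Per1 and Tef, the AGGTCA core of ROR elements in Per1 (on the minus strand, read here as TGACCT) and the D-box TTATGTAA in Per3. The windows lie at chr11:69098699-69098998 (plus strand), chr4:151044616-151044915 (minus strand) and chr15:81802423-81802722 (plus strand).
Per1: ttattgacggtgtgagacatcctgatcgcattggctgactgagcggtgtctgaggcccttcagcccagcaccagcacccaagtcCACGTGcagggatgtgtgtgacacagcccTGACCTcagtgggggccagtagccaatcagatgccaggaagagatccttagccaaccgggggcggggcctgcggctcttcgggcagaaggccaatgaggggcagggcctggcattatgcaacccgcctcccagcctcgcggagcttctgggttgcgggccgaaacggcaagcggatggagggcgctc
Per3: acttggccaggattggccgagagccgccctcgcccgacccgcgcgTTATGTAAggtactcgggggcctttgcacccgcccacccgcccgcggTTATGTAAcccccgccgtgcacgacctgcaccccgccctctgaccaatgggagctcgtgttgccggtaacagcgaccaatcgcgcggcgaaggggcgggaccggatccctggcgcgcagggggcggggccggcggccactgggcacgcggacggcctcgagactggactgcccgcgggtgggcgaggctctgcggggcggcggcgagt
Tef: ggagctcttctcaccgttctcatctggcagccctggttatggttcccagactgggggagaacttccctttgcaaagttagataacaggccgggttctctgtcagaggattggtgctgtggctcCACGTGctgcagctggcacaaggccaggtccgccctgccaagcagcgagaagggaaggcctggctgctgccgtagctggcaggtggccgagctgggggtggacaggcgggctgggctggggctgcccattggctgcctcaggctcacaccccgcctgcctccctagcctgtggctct
Counted from the start site, the E-box of Per1 began at base -166 and its TGACCT at -137. In Per3 the D-box began at -205 and again at -158, and in Tef the E-box began at -127. Both strands were searched for 4 motifs that share no stretch with one another in these windows. CACGTG was found in 4 of the 13 member windows, from 3 of the 9 members (Per1, Cry1, Tef), and in 7.15% of all 32851 windows. The variant CACGTT was found in 3 of the 13 member windows (Cry1, Cry2, Nr1d1) and 4.68% of all windows. AGGTCA was found in 3 of the 13 (Clock, Per1, Nr1d2) and 16.3% of all windows. The D-box, searched as TTATGTAA or TTACGTAA, was found in 1 of the 13 member windows, that of Per3, and in 1.06% of all windows. These matches describe letters in short windows and say nothing of what was bound in these cells.

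Values are MAS5 signals, scaled by the authors to a common trimmed mean on each array, and are given on the log2 scale, on which a difference of 1 is 2-fold. The level of a probe set was compared between arrays and never with that of another gene. The Tgfbr2 probe set read 10.35 to 12.39 on the 6 Het arrays and 11.31 to 12.14 on the 6 arrays labelled cKO, so the groups overlapped. No source used here says whether it lies in the deleted part, so it does not check the genotype labels. The mean of 5 bulge markers was 13.54 to 13.87 on bulge arrays and at most 11.83 elsewhere. The mean of 3 hair germ markers was 9.67 to 11.75 on HG arrays and 7.05 to 8.09 on bulge arrays, although the Het TK array of set 2 reached 10.46. Krt5 and Krt14, keratins of basal keratinocytes, had a mean of at least 14.14 on every array. The activated Het HG array stood apart from the others, with the lowest value of the 12 arrays for 20.9% of the 12749 tested genes. It also held the highest value for 19.0% of them, and both shares were the largest of any array. Its median signal, 63.9, was the lowest. Fewer cells of a type and less RNA per cell cannot be told apart in sorted bulk samples.

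The Period genes, which encode the repressors of the loop, were lower in set 2 than in set 1 across fractions and genotypes. Per1, Per2 and Per3 passed the limma test (Benjamini-Hochberg adjusted p under 0.05), and each was lower in 6 of 6 pairs of arrays matched for fraction and genotype. The fall was 1.56-fold for Per1, 1.92-fold for Per2 and 2.03-fold for Per3. In this comparison 5.10% of all tested genes passed the test, 395 down and 255 up, and 3 of the 10 clock genes did, all down. All 10 members had a difference below 0, with a median of -0.44 against -0.08 for all tested genes, of which 58.8% were below 0.

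Per3, the Period gene least needed for rhythm in mice, read 10.81 (HG), 10.25 (bulge) and 10.95 (TK) on the Het arrays of set 1 and 8.75, 9.83 and 10.02 on those of set 2. On the cKO arrays it read 11.36, 10.85 and 11.12 in set 1 and 10.63, 9.97 and 10.01 in set 2. The sets overlapped through the cKO HG array of set 2, which lay above the Het bulge array of set 1, while every matched pair fell. The difference over 6 pairs was -1.02 (SE 0.19, limma adjusted p = 0.0242).

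Per2, a core repressor whose loss shortens or abolishes the rhythm, read 9.91 (HG), 10.35 (bulge) and 10.30 (TK) on the Het arrays of set 1 and 8.15, 9.78 and 9.45 on those of set 2. On the cKO arrays it read 10.78, 10.59 and 10.51 in set 1 and 9.86, 10.27 and 9.28 in set 2. The cKO bulge array of set 2 lay within the range of set 1, and the other 5 arrays of set 2 lay below all of set 1. The difference was -0.94 (SE 0.18, limma adjusted p = 0.0273).

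Per1, the Period gene that also responds acutely to signals such as glucocorticoids, read 10.71 (HG), 11.84 (bulge) and 11.57 (TK) on the Het arrays of set 1 and 9.58, 11.53 and 10.86 on those of set 2. On the cKO arrays it read 11.06, 11.65 and 11.52 in set 1 and 10.56, 10.93 and 11.02 in set 2. The sets overlapped for Per1 because the fractions themselves differed, and within each fraction and genotype the array of set 2 was the lower. The difference was -0.64 (SE 0.12, limma adjusted p = 0.0282).

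The 18 matched differences of the Period genes were all below 0, from -0.31 (Per1, Het bulge) to -2.06 (Per3, Het HG). They come from 3 genes on the same 6 pairs of arrays, so they are not 18 separate observations. Each Period gene fell most in the Het HG pair, where the activated array stands, but the call did not rest on it. Without the activated Het HG array the differences were -0.55 for Per1, -0.78 for Per2 and -0.81 for Per3, and all 3 still passed. That fit still held the activated Het bulge array. It also held the Het TK array of set 2, where the hair germ marker mean was 10.46 against 8.20 in set 1. Leaving out the HG array thus does not take follicle activation out of the comparison. Without any 1 of the 4 TK arrays no member passed, but only 0.0787% to 1.33% of all genes did, against 5.10% with every array. The differences there were -0.63 to -0.67 for Per1, -0.89 to -0.96 for Per2 and -1.01 to -1.04 for Per3. Without a Het bulge or a cKO HG array 1 member (Per3) passed, and 0.474% to 1.04% of all genes did. None passed with genes of low signal included, where 0% of all genes passed. Nor did any with eBayes without a trend (0.275% of all genes), with fraction alone as the block (1.83%) or with the HG and bulge arrays alone (0.0953%). Calls over all genes fell in each of these fits, so the loss was not particular to the clock genes.

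Tef, which encodes one of the D-box activators, was lower in set 2 in 6 of 6 pairs as well, with a difference of -0.68 (SE 0.24), and did not pass the test (limma adjusted p = 0.107). Across the array, 9.46% of the tested genes were lower in all 6 pairs, and 4 of the 10 members were: Per1, Per2, Per3 and Tef. The other D-box activator, Dbp, had a difference of -0.46 (limma adjusted p = 0.375) and was lower in 4 of 6 pairs. Nr1d2, one of the pair of REV-ERB receptors, had one of -0.41 (limma adjusted p = 0.194) and was lower in 5 of 6. The differences were -0.33 for Cry1, -0.31 for Cry2, -0.19 for Clock and -0.10 for Nr1d1, with adjusted p-values from 0.288 to 0.908. The Cryptochromes, which repress alongside the Period proteins, thus did not pass where the Period genes did, although the difference between the families was not tested.

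Markers of other cells and of the cell cycle moved between the sets too. Of 6 fibroblast genes 4 were called lower in set 2 (median -0.86), of 6 leukocyte genes 1 was, and of 7 cell division genes 2 were called higher (median 0.94). All 6 melanocyte genes and 6 of 7 glucocorticoid-responsive genes were below 0, each list with a median of -0.44, as for the members. None of these 2 lists passed. The immediate early and stress genes had a median of 0.07. Krt1, Krt10 and Lor, genes of differentiating epidermis, were all below 0 (median -0.97), and Lor passed at -1.87 (SE 0.39, limma adjusted p = 0.0331). The fall of Krt1 and Krt10 lay in HG and bulge. On the Het and cKO TK arrays Krt1 read 14.22 and 14.62 in set 1 and 14.43 and 14.78 in set 2. Krt10 read 15.52 and 15.79 in set 1 and 15.60 and 15.79 in set 2 there. Lor read 11.01 and 10.19, then 9.42 and 10.43. The fibroblast list's summed signal ran from 15126 to 280840 in set 1 and from 15920 to 149949 in set 2. The part of these differences in the fall of the Period genes was not tested.

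**Figure D1:**
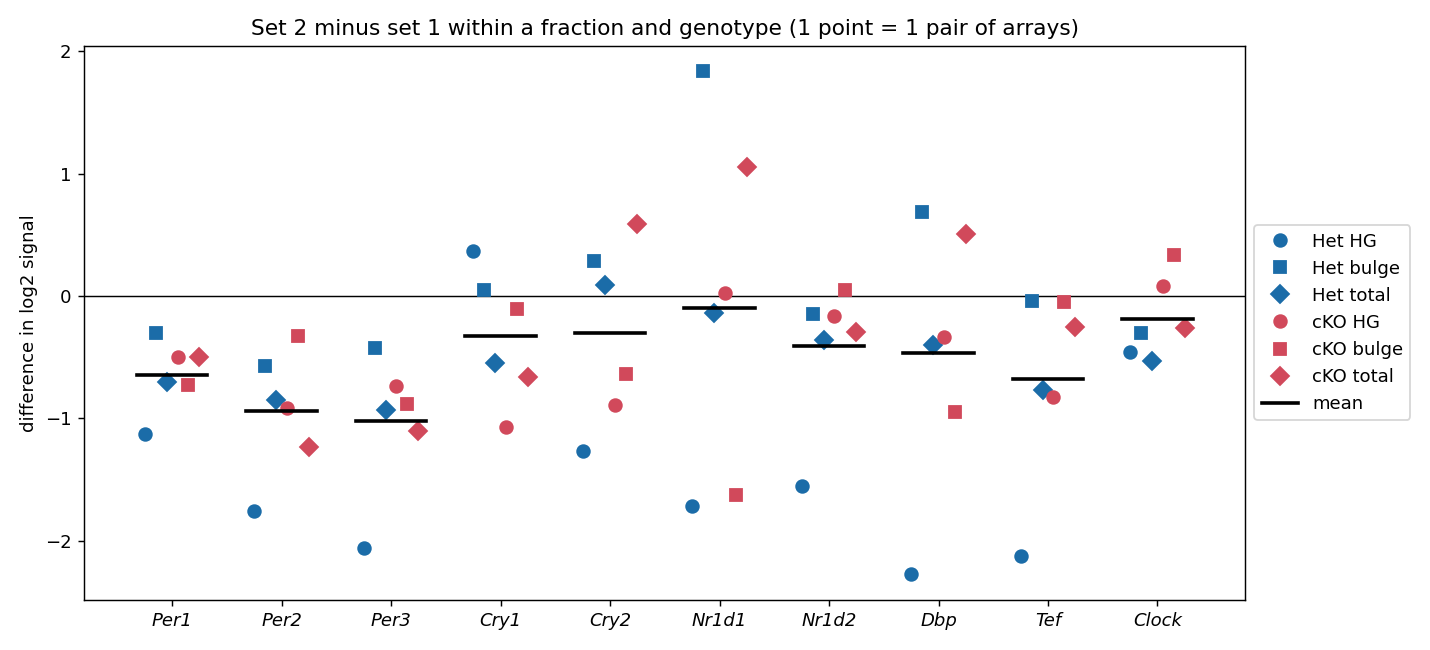
Set 2 minus set 1 of each clock gene (vertical axis, difference in log2 signal), with 1 point for each of the 6 pairs of arrays matched for genotype (colour) and fraction (shape) and a bar at their mean. All 18 points of Per1, Per2 and Per3 lie below 0, whereas the points of Nr1d1 spread from -1.72 to 1.84.

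The fall of the Period genes did not pass within either genotype. Both comparisons were read from a fit of the arrays of both genotypes, with fraction as the block. The error behind the Het p-values thus came in part from cKO arrays, and the reverse. Among Het arrays 3.29% of all tested genes passed between the sets, and none of the 10 members did, although 6 had an unadjusted p under 0.05, as did 23.9% of all tested genes. The nearest was Per3 at -1.14 (SE 0.31, limma adjusted p = 0.0639), followed by Per2 at -1.06 (limma adjusted p = 0.0789). Without the activated Het bulge array, 5 members and 7.01% of all genes passed in Het: Per3 and Tef at -1.44, Per2 at -1.29, Dbp at -1.47 and Per1 at -1.02. Among cKO arrays 0.0549% of genes passed and no member did, with 4 members and 8.80% of all tested genes under an unadjusted p of 0.05. There Per3 had a difference of -0.91, Per2 of -0.83, Cry1 of -0.61 and Per1 of -0.58, and the limma adjusted p-values were 0.517 to 0.545.

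The 2 genotypes were compared for their set difference directly through an interaction term, which 0.0157% of genes passed. No member passed in limma, also at an unadjusted p of 0.05. The Period genes had interactions close to 0 relative to their error, at 0.14 (SE 0.35) for Per1, 0.24 (SE 0.45) for Per2 and 0.23 (SE 0.44) for Per3. These errors leave room for a difference between genotypes about as large as the set difference itself. Tef had the largest value at 0.60 (SE 0.49, limma adjusted p = 0.865), followed by Cry1 at -0.57 and Nr1d2 at 0.55. A second interaction asked whether HG and bulge differed from TK in their set difference. It was passed by 0% of genes in limma, with 391 at an unadjusted p under 0.05, among them 1 member, Cry2, at -0.97 (limma adjusted p = 0.9998).

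The lowest clock gene levels were concentrated on a single array, that of the activated Het hair germ. This array held the lowest of the 12 values for 8 of the 10 members, all but Cry1 and Nr1d1, and for 20.9% of all tested genes. No other array held it for more than 1 member. It lay at least 2-fold below the mean of the other 3 HG arrays for 8 members, all but Clock and Cry1, whereas 17.1% of all tested genes lay that far below. The median difference from the other HG arrays was -1.68 over the members and -0.15 over all tested genes. This array was singled out after its values were seen, it is 1 array, and no test was made.

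Among the Period genes, Per3 read 8.75 on the activated HG array, against 10.81 on quiescent Het HG, 11.36 on quiescent cKO HG and 10.63 on aberrantly quiescent cKO HG, which put it 4.54-fold below their mean. Per2 read 8.15 against 9.91, 10.78 and 9.86 in the same order, 4.08-fold below. Per1 read 9.58 against 10.71, 11.06 and 10.56, 2.29-fold below. The 3 other HG arrays lay close together for Per1 and within 1 log2 unit for Per2 and Per3, so the activated array stood outside their range for each.

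The D-box activators were also lowest on this array. Tef read 10.01 on the activated HG array against 12.13, 12.41 and 11.58 on the others, 4.09-fold below their mean. Dbp, a direct target of CLOCK and BMAL1 with a wide daily swing in many tissues, read 10.69 against 12.97, 12.68 and 12.34, 3.92-fold below. Both lay below each of the other 11 arrays as well.

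The REV-ERB receptor genes were low on this array too. Nr1d2 read 12.36 against 13.91, 13.97 and 13.81, 2.90-fold below, and the remaining 11 arrays all lay between 13.35 and 13.97. Nr1d1 read 5.64 against 7.36, 7.52 and 7.54, 3.55-fold below. Nr1d1 was a dim signal, above the pooled median of all probe sets on 9 of 12 arrays, and the activated HG array was not one of these.

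The positive arm and the Cryptochromes split. Cry2 read 7.87 against 9.13, 9.63 and 8.73, 2.46-fold below. Clock read 9.58 against 10.04, 10.002 and 10.08, 1.38-fold below. Cry1 alone was not low, at 9.30 against 8.94, 9.84 and 8.76, which is inside the range of the other HG arrays.

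**Figure D2:**
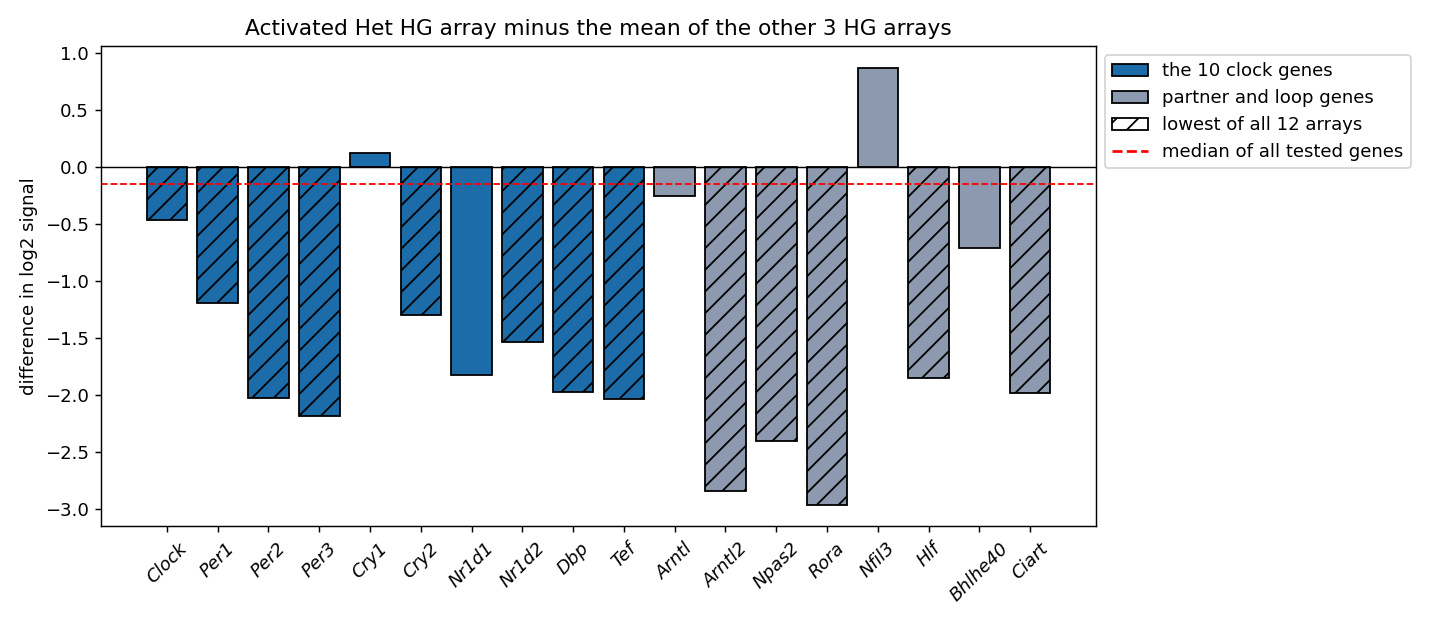
Activated Het HG array minus the mean of the other 3 HG arrays (vertical axis, difference in log2 signal), as 1 bar for each of the 10 clock genes (blue) and the 8 tested partner and loop genes (grey), hatched where the activated array was the lowest of 12, with a dashed line at the median of all tested genes (-0.15). The bars of 9 clock genes lie below 0, down to -2.18 for Per3, and those of Cry1 and Nfil3 lie above it.

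Different probe sets of a gene gave the same picture on this array. Of the 24 probe sets, 22 had their lowest HG value there. The exceptions were that of Cry1 and 1 of Per3, which shared the signal floor with another HG array. The share of all probe sets with their lowest HG value there was not computed, so this count does not set the clock genes apart. The 24 probe sets cover 10 genes, with 6 for Per3 and 4 for Clock. On the activated array 3 probe sets were at the floor, and 2 of these (1 of Per2 and 1 of Per3) were among the 22, so their size of difference is only a bound. The kept Clock probe set differed by -0.46, while the other 3 of Clock differed by -1.36, -1.40 and -2.29. Of the other probe sets that were above the floor there, 1 of Per2 differed by -3.98 and 3 of Per3 by -2.13, -2.54 and -2.57. Under quantile normalization, added after the values were seen, 8 members were lowest of 12 (17% of all genes) and 8 were 2-fold below (11.3%), with a median of -1.46 against 0.03 for all genes. With a gene's probe sets averaged, also added then, 8 were lowest (21.1% of all genes) and 9 were 2-fold below (14.6%), with a median of -1.47 against -0.18.

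Clock genes outside the members differed by list on the same array. Of all tested genes, 20.9% were lowest of 12 there and 17.1% lay at least 2-fold below the mean of the other HG arrays. Among 8 tested partner and loop genes, 5 were lowest there and 2-fold below the other HG arrays: Rora (-2.96), which encodes the ROR activator, Arntl2 (-2.84), Npas2 (-2.40), a stand-in for CLOCK, Ciart (-1.98), a repressor, and the D-box activator Hlf (-1.85). Bmal1 differed by only -0.25, and Nfil3, the D-box repressor, by 0.87. None of 7 kinase, phosphatase and ligase genes of the clock was lowest there, and their median difference was 0.14. Of 9 output genes 5 were lowest there, and 3 were 2-fold below: Klf9 (-1.76), Ppara (-1.20) and Wee1 (-1.12).

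Other lists moved on this array at the same time. The mean of 7 cell division genes was 12.02 against 9.80 to 10.28 on the other HG arrays, and that of the hair germ markers 11.75 against 9.67 to 9.72. The mean was 14.14 against 15.37 to 15.47 for Krt5 and Krt14, 7.59 against 9.18 to 9.36 for 6 leukocyte genes, 10.63 against 11.24 to 12.03 for 11 immediate early and stress genes, and 11.31 against 12.50 to 13.17 for 7 glucocorticoid-responsive genes. The mean of Krt1, Krt10 and Lor, genes of differentiating epidermis, was 10.56 against 11.73 to 13.16. The mean of 6 fibroblast genes was 9.94 against 10.23 to 11.04, although their summed signal was higher (28934 against 15126 to 25072) through Dcn, at 14.56 against 12.48 to 12.81. The part of cell division, differentiation, cell makeup, stress or glucocorticoid response in the low clock gene values was not tested.

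**Figure D3:**
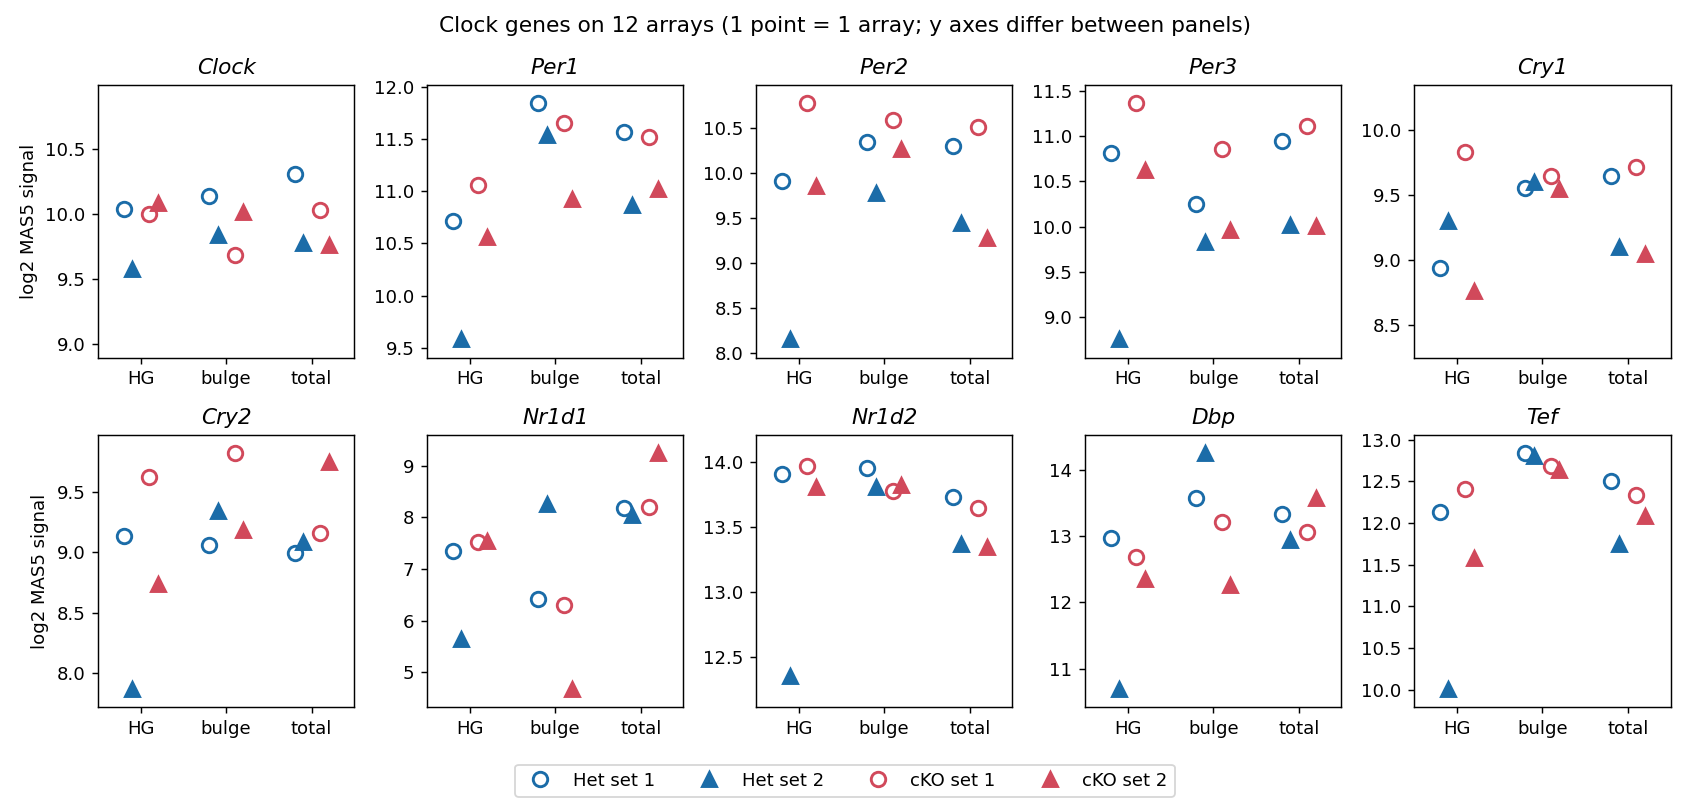
Log2 MAS5 signal of the 10 clock genes, 1 panel for each gene and 1 point for each of the 12 arrays, by fraction (horizontal axis), genotype (colour) and set (open circles for set 1, filled triangles for set 2), with vertical axes that differ between panels. The activated Het HG array holds the lowest value for 8 genes (and for 20.9% of all tested genes), and within the bulge Dbp and Nr1d1 spread most.

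No clock gene passed the test between the arrays labelled cKO and Het. Over 6 matched pairs 0% of all tested genes passed in limma, with 1099 (8.62%) at an unadjusted p under 0.05, and none of the 10 members passed, with 3 at an unadjusted p under 0.05. Those 3 were all higher in cKO, in 5 of 6 pairs each: Per2 by 0.56 (SE 0.21, limma adjusted p = 0.553), Per3 by 0.56 (SE 0.22, limma adjusted p = 0.557) and Cry2 by 0.47 (SE 0.17, limma adjusted p = 0.543). The Het range for Per2 was 8.15 to 10.35 and the cKO range 9.28 to 10.78, so the genotypes overlapped. The remaining 7 members differed by -0.10 to 0.28.

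Hair germ and bulge differed in 2 members in the fit with genotype and set as a block, and in none without that block. Per1 was lower in HG than in bulge, with a difference of -1.01 (SE 0.25, limma adjusted p = 0.0213), and so was Tef, with one of -1.21 (SE 0.35, limma adjusted p = 0.0393), each in 4 of 4 pairs matched for genotype and set. In this comparison 19.2% of all tested genes passed, so 2 of 10 is near the background and is no result about clock genes as a group. Per1 read 10.71, 11.06, 9.58 and 10.56 on the HG arrays (quiescent Het, quiescent cKO, activated Het, aberrantly quiescent cKO) and 11.84, 11.65, 11.53 and 10.93 on the bulge arrays in the same order. The lowest bulge array lay below the highest HG array, so the fractions overlapped although every matched pair was ordered. Tef read 12.13, 12.41, 10.01 and 11.58 in HG and 12.84, 12.68, 12.80 and 12.64 in bulge, and these did not overlap.

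The size of both differences rested in part on the activated pair. Without either activated Het array the differences were -0.70 for Per1 and -0.68 for Tef, and Per3 (0.58) and Nr1d1 (1.67) then passed as higher in HG, which made 4 members, where 22.1% to 22.4% of all genes passed. Without either quiescent Het array no member passed, and 9.62% to 9.79% of all genes did, against 19.2% with all 8 arrays. Without either cKO array of set 2 only Per1 passed, and 10.3% to 10.5% of all genes did. Without the block the limma adjusted p was 0.0566 for Per1 and 0.0776 for Tef. None passed with genes of low signal included (3.56% of all genes) or with eBayes without a trend (12.6%). With probe sets averaged (14.8%) or with the floor at the pooled median (16.7%), 1 (Per1) passed.

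The other members did not pass between HG and bulge. Dbp differed by -1.15 (SE 0.49, limma adjusted p = 0.136), Per2 by -0.57 (limma adjusted p = 0.17), Cry2 by -0.51, Cry1 by -0.38 and Nr1d2 by -0.33. Per3, unlike the other Period genes, had a difference above 0, at 0.16, and was higher in HG in 3 of 4 pairs. Clock, at 0.01, and Nr1d1, at 0.59 with an SE of 0.74, did not pass either. Markers of other cells separated the fractions strongly. All 6 fibroblast genes were called lower in HG (list mean 9.94 to 11.04 in HG, 13.21 to 14.62 in bulge), all 6 melanocyte genes higher (10.003 to 10.60 against 7.01 to 8.17), and all 7 tested cell division genes higher. The part of these cells in the values of Per1 and Tef was not tested.

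**Figure D4:**
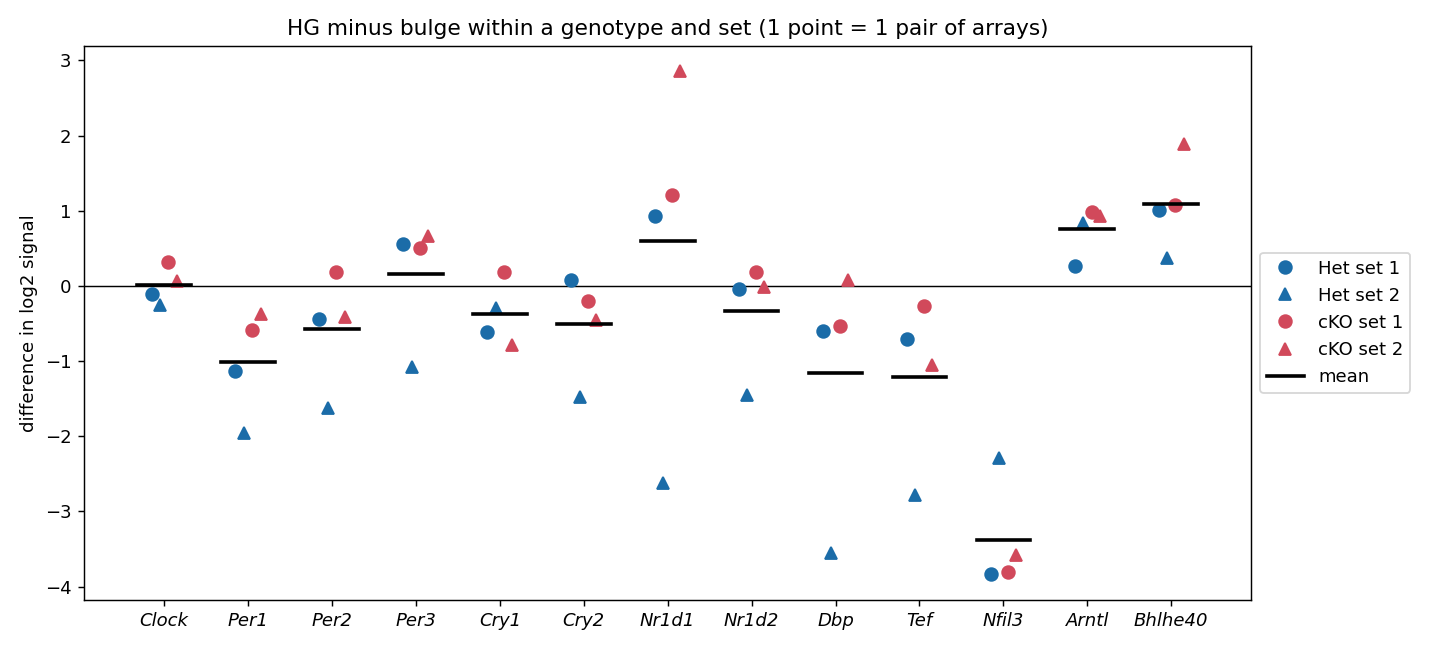
HG minus bulge (vertical axis, difference in log2 signal) of the 10 clock genes and of Nfil3, Arntl and Bhlhe40, with 1 point for each of the 4 pairs of arrays matched for genotype (colour) and set (shape) and a bar at their mean. All 4 points of Per1 and of Tef lie below 0, with the activated Het pair the lowest of both, and those of Nfil3 average -3.38.

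No member passed between the mean of HG and bulge and the TK arrays, where 17.1% of all tested genes passed in limma. At an unadjusted p under 0.05 there were 4079 of the 12749 tested genes and 1 member, Nr1d1, whose transcript is strongly rhythmic in many tissues, which was lower in the stem cell fractions in 7 of 8 pairs, with a difference of -1.70 (SE 0.58, limma adjusted p = 0.0618). Nr1d1 read 8.18, 8.20, 8.04 and 9.25 on the TK arrays, 5.64 to 7.54 on HG arrays and 6.43, 6.31, 8.27 and 4.68 on bulge arrays. The TK arrays lay above all HG arrays and above 3 of 4 bulge arrays. With HG alone against TK, Nr1d1 (-1.40), Dbp (-1.05) and Per1 (-0.76) passed, and with bulge alone Nr1d1 (-1.99) and Tef (0.57) did. The share of all genes that passed was 11.9% with HG alone and 26.2% with bulge alone, so 2 of 10 with bulge alone is no more than the background. Tef thus changed sign between the choices, from -0.03 with both fractions to 0.57 with bulge alone.

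Dbp and Nr1d1 had the widest spread of the members within the bulge. Dbp read 13.57 (quiescent Het), 13.21 (quiescent cKO), 14.25 (activated Het) and 12.26 (aberrantly quiescent cKO) on the bulge arrays, and Nr1d1 read 6.43, 6.31, 8.27 and 4.68 in the same order. Both genes were thus highest on the activated Het bulge array and lowest on the aberrantly quiescent cKO bulge array, in contrast to the activated HG array, where both were low. Among the TK arrays both were highest on cKO TK of set 2, Dbp at 13.57 and Nr1d1 at 9.25. The 11 immediate early and stress genes, a set that rises in cells during dissociation, had means of 13.14 on the activated Het bulge array and 13.87 on that cKO TK array, against 10.63 to 12.23 on the other 10. Their part in the Dbp and Nr1d1 values was not tested.

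Beyond the members, the clock genes of 3 further lists were measured in the same fits. Between the sets over all fractions, 1 of 8 tested partner and loop genes passed, Hlf, at -0.70 (SE 0.15, limma adjusted p = 0.0354). Of 9 output genes 2 passed, the PPAR-alpha gene Ppara at -0.74 (SE 0.15, limma adjusted p = 0.0327) and Wee1, a kinase that holds back mitosis, at -0.55 (SE 0.13, limma adjusted p = 0.0427). Each was lower in 6 of 6 pairs, and none of 7 kinase, phosphatase and ligase genes passed. Bmal1 had a difference of -0.04 (limma adjusted p = 0.911) and Npas2 of -0.70 (limma adjusted p = 0.167), and neither passed. Arntl2 and Rora were lower in every matched pair as well, without passing. Of the 8 tested partner and loop genes 7 were below 0, with a median of -0.48 against -0.44 for the members. At an unadjusted limma p under 0.05 there were 4 of these 8, 4 of the 10 members and 26.5% of all tested genes. The shift below 0 was thus not particular to the Period genes. None of these lists' genes passed within a genotype, in either interaction or between the genotypes.

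Between HG and bulge, 6 of the 24 tested genes of these lists passed, near the 19.2% of all genes. Nfil3, the repressor that competes with DBP and TEF for D-boxes, was lower in HG, with a difference of -3.38 (SE 0.26, limma adjusted p = 5.43e-05). It read 7.74 to 8.99 on HG arrays and 11.28 to 12.12 on bulge arrays, without overlap. Bhlhe40, a repressor at E-boxes, was higher in HG by 1.09 and Timeless, which also works at the replication fork, by 1.87. Btrc, a ubiquitin ligase subunit that marks Period proteins for decay, was lower (-1.11), as were Usp2, a deubiquitinase (-1.52), and Tspan4, a tetraspanin (-1.96). Bmal1 was higher in HG in 4 of 4 pairs, by 0.75 (SE 0.24), and did not pass (limma adjusted p = 0.0544).

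Against TK, 9 of the 24 tested genes of these lists passed, beside 17.1% of all genes. The mean of HG and bulge was above TK in Nfil3 (1.33), Tspan4 (1.19), Btrc (1.04) and Usp2 (0.62). It was below TK in Cdkn1a (-1.75), the cell cycle inhibitor p21, Ppara (-1.35), Bhlhe40 (-1.20), Hlf (-0.998) and Rora (-0.995). The 5 lower genes were lower in 8 of 8 pairs. Nfil3 was higher in only 5 of 8 pairs, as it was high in bulge alone. Tspan4, Btrc and Usp2 were also high in bulge alone, and their HG and TK arrays overlapped. Usp2 read 8.16 to 9.47 on HG, 8.59 to 9.45 on TK and 10.28 to 10.58 on bulge arrays. Btrc read 6.29 to 7.35 on HG, 4.37 (the signal floor) to 7.31 on TK and 7.49 to 8.38 on bulge arrays.

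Most pairs of members were positively correlated over the 12 arrays. Of 45 pairs of members, 44 had a Pearson r above 0, with a median of 0.57 and a range from -0.18 (Nr1d1 with Cry1) to 0.92 (Per1 with Tef). These arrays share fractions, sets and the low activated HG array, so r is a description. It was not set beside r between pairs of other tested genes, so it does not set the clock genes apart. The kept probe set and the others of a gene correlated at 0.99 for Dbp, 0.63 and 0.71 for Tef, 0.58 and 0.89 for Per2, 0.41 to 0.88 for Per3, 0.59 for Nr1d2 and 0.31 to 0.44 for Clock, whose probe sets thus followed one another least. In a fit with every probe set on its own, the calls between the sets covered Per1, 1 of 2 tested Per2 probe sets and 2 of 5 tested Per3 probe sets.

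The genes whose pattern was most like a member's over the 12 arrays are given as a description. For each member the 5 nearest of all tested genes were taken by Pearson r, and none of these 50 was a member or in the 3 further lists. Nearest to Tef were Mcl1 (0.986), Lamb3 (0.984), Cnksr1 (0.977), Cdh13 (0.976) and Col17a1 (0.971). Nearest to Per3 were Fyco1 (0.984) and Pcgf5 (0.962), and nearest to Per2 was Sirt2 (0.955). Per1 ran with Ctdsp2 (0.974), Inf2 (0.954) and Tgfbr2 itself (0.952), and Tgfbr2 was lower in set 2 in 6 of 6 pairs, with a difference of -0.53 (SE 0.13, limma adjusted p = 0.0494). The nearest gene was Clmn for Nr1d2 (0.973), Tmem40 for Dbp (0.959), Snx27 for Cry1 (0.926), Sh3rf2 for Nr1d1 (0.923), Mdfic for Clock (0.921) and Cog4 for Cry2 (0.905).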

How the data were processed

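RNA of sorted skin cells was measured on 12 arrays. The values as deposited are intensities, namely MAS5 signals per the submitters' processing notes, and the authors scaled each array to a trimmed mean of 500, which was checked in the values. No further normalization was added. Of 45101 probe sets, 64 controls were left out, and 34945 had 1 gene symbol, 932 several and 9160 none. Values under the pooled 25th percentile (20.7) were set to it before the log2. The probe set with the highest mean stood for a gene. Genes above the pooled median (84.7) on at least 2 arrays were tested. The number of arrays limits the precision.

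Tests were two-sided, by limma 3.58.1 in R 4.3.3 with trended eBayes, and p-values were adjusted by Benjamini-Hochberg over all tested genes at a threshold of 0.05. The set comparison over all fractions had genotype and fraction as a block of 6 pairs. The block was fraction and set for the genotype comparison, and genotype and set for the fraction comparisons. The set comparisons within Het and within cKO and the genotype by set interaction did not use the block of 6 pairs. They came from a fit of the arrays of both genotypes with fraction as the block, so their error was pooled over both genotypes. Fits were tested on simulated data. Correlations and motif searches used Python 3.11.15 with pandas 2.3.3. All 10 members were named throughout, and of the other clock lists the genes past the threshold with Bmal1 and Npas2. For each member the 5 genes of highest Pearson r were taken. Members and lists were chosen with earlier results of these data known. Rorb, Bhlhe41 and Fbxl21 were below the filter, and list genes without a matched probe set were not analysed here. The alternatives were other normalizations, floors, filters, probe set rules, blocks and array choices, and leaving out each array in turn.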

Additional observations from a re-analysis of the deposited data

How the results depend on the processing

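The counts of members called and each member's difference were recomputed under the alternatives that apply to each comparison, the activated HG description under 2 (given beside it), and the correlations under none. For single members, 1462 of 1652 values kept their direction and side of the threshold, 48 lost and 16 gained a call, 125 changed sign with no call on either side, and 1 reversed: Tef in the stem cell fractions against TK, which was -0.03 and became 0.57 (limma adjusted p = 0.0259) with bulge alone. Between the sets 3 members passed. None (0) passed with no filter (0% of all genes), with eBayes without a trend (0.275%), with HG and bulge arrays alone (0.0953%) or with fraction alone as a block (1.83%). With the mean of all probe sets 1 passed (1.2% of all genes), and leaving out 1 array gave 0 to 3 (0.0787% to 5.16%). In these alternatives Per1 was called in 10 of 22 (differences -0.71 to -0.55), Per2 in 9 of 22 (-1.07 to -0.78) and Per3 in 13 of 22 (-1.14 to -0.79), with the same sign in each. Within Het, where 0 members passed, leaving out 1 array gave 0 to 5. Between HG and bulge 2 passed. The count was 1 with the floor at the pooled median (16.7% of all genes) and with the mean of all probe sets (14.8%). It was 0 with no filter (3.56%) and with eBayes without a trend (12.6%), and 0 to 4 without 1 array (9.62% to 22.4%). Per1 was called in 12 of 17 of these and Tef in 8 of 17. Against TK 0 passed. The count was 1 under quantile normalization and 1 with the floor at the pooled median, 3 with HG alone, 2 with bulge alone, and 0 to 1 without 1 array. With no filter more genes are tested, and with fraction alone fewer terms are fitted. For the other alternatives the cause was not tested. Members called within cKO, in both interactions and between the genotypes stayed at 0 throughout.

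Set numbers were checked for pairing by correlating set differences between fractions and genotypes over 27218 probe sets. Of 15 correlations (0.06 to 0.53), 11 were over 0.1 and the others were not, so pairing by set number was not established. In Het these differences also hold the change from quiescent to activated. The correlations therefore cannot tell whether set numbers mark arrays collected together. With no replicate block, 0 members passed between the genotypes (0 with it), 0 between HG and bulge (2 with it) and 0 against TK (0 with it). Dim signals such as Nr1d1 are limited by their distance from background.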
